A study of Mus musculus with 2 samples.

Results

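Genes for voltage-gated sodium and calcium channels were compared between internal and external carotid arteries of mouse embryos. The set was a given list of 29 subunit genes, read from every probe set annotated to them, among 18193 named genes on the array. A probe set was found for 26 of the 29, with 69 probe sets in all and 1 to 5 per gene. Scn4a, Cacnb3 and Cacna1i were not analysed here. Of the 26 genes, 18 had a ratio or bound by the rule given below, and 8 were under the floor on both arrays, where 31.7% of all genes had no value.

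The samples were a pool of internal and a pool of external carotid arteries, microdissected from untreated ICR embryos at E13.5. The design text gives 22 embryos for the pooled segments. Each vessel had 1 array and no replicate, so every value is a single measurement per vessel, the spread between samples is unknown and no test was possible. The series concerns endothelin and the axons of the superior cervical ganglion, a sympathetic ganglion whose axons grow along these arteries.

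Voltage-gated sodium channels open when a membrane depolarises and carry the upstroke of the action potential in neurons and striated muscle. They hold a pore-forming alpha subunit and beta subunits that adjust gating and bind adhesion molecules. Voltage-gated calcium channels turn depolarisation into calcium entry, which starts transmitter release at nerve terminals and contraction in muscle. Their pore-forming alpha1 subunit sets the type, with P/Q, N and R types at nerve terminals, L types in muscle and many neurons, and T types that open near rest. Beta and alpha2delta subunits bring the calcium pore to the membrane. In arterial smooth muscle the L-type pore Cacna1c is the main route of calcium entry for contraction.

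Signals are the deposited linear array intensities, in arbitrary units. The floor for low signal was the median of an array's 45037 non-control probe sets, 47.5 for internal and 52.3 for external carotid. If neither signal was under its floor, the log2 ratio of external over internal signal is given. Where 1 signal lay under its floor, the other signal over that floor gives a lower bound, and the text then says "at least". The brightest probe set stood for a gene, and a gene was called at 2-fold. For probe sets at or above both floors, the log2 ratio was compared between probe sets of the same gene. Its pooled standard deviation was 0.34, or 1.26-fold, over 4315 genes. That value is a technical spread on the same pair of arrays. It says nothing of differences between embryos or of probe sets under a floor.

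For the called members with an entry among the RefSeq promoter windows of build GRCm38.p6, the window is shown so that members higher in the external pool (Cacna1b, Cacng2, Scn7a) can be read beside the member higher in the internal pool (Cacna1d). Each runs 5′ to 3′ from 250 bases before to 50 after the annotated start on the gene's strand, which is the minus strand for all 4 genes. Capitals mark CAGCTG, an E-box, the kind of site that basic helix-loop-helix factors bind. The windows are chr2:24763103-24763402 for Cacna1b, chr15:78119231-78119530 for Cacng2, chr2:66784861-66785160 for Scn7a, and chr14:30491107-30491406 and chr14:30353437-30353736 for the upstream and downstream starts of Cacna1d.
Cacna1b: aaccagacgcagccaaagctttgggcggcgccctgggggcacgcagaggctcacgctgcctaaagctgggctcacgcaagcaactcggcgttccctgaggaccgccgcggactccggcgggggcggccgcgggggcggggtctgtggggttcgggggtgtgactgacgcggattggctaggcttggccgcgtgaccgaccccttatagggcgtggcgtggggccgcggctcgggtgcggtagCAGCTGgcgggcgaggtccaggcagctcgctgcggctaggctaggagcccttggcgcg
Cacng2: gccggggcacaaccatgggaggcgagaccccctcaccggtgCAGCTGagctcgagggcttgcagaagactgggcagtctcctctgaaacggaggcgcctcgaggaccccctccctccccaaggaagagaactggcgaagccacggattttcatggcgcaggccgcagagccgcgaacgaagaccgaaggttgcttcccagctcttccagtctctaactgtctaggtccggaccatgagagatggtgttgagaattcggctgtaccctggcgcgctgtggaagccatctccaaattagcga
Scn7a: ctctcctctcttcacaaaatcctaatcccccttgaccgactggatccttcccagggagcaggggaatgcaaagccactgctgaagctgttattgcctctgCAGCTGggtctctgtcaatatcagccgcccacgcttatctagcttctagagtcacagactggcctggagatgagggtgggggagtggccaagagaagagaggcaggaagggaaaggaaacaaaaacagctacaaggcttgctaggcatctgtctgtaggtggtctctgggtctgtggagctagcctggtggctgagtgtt
Cacna1d upstream start: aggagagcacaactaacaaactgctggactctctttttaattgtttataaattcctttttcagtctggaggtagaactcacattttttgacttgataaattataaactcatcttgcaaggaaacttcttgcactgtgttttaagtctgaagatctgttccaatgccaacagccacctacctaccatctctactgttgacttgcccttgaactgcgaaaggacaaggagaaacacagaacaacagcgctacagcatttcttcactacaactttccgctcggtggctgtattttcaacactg
Cacna1d downstream start: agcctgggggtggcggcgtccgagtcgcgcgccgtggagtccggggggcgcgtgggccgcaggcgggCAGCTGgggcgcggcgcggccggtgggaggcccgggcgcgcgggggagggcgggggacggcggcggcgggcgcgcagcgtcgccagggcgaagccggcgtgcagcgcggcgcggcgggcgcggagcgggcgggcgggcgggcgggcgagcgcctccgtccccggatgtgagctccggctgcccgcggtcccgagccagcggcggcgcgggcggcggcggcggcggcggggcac

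The E-box CAGCTG was present once in the Cacna1b, Cacng2 and Scn7a windows, beginning at -8, -209 and -150 from the start, and once in the downstream Cacna1d window, at -183. It was in 16.3% of all 32851 promoter windows of that length and in 9 of the 33 windows of the members, and in both directions of difference, so it did not separate them. CAGCTG and a further 10 motifs were searched on both strands after the values were known. Of all windows, GGGCGG was in 35.7%, CCAAT in 37.4%, GGACAG in 22.2%, CATCTG in 17.2% and TATAAA in 13.6%. TGACGT was in 7.51%, TGACGTCA, which contains it, in 1.79%, CACGTG in 7.15%, TAATTA in 5.29% and TTCAGCACC in 0.371%. In the windows shown, GGGCGG was found for Cacna1b, Cacna1d and Scn7a, CCAAT for Cacna1b and Cacna1d, CATCTG for Scn7a and TATAAA for Cacna1d, and the other 6 were not found there. The Cacna1b window was 72.3% G and C with 35 CpG dinucleotides, that of Cacng2 61.0% with 20, and that of Scn7a 54.0% with 3. The upstream Cacna1d window was 40.3% G and C and the downstream one 87.3%, against a median of 52.7% over all windows. Promoter windows were matched for 23 of the 29 members, and not for Scn3a, Scn3b, Cacna1a, Cacna1g, Cacna1h and Cacng4.

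Of the 18 measured members, 4 were higher by 2-fold or more in the external carotid pool, where 2.15% of all 12419 genes with a value were. Those were the sodium channel beta subunit Scn3b, the atypical sodium channel Scn7a, the N-type pore Cacna1b and the gamma subunit Cacng2. Cacna1d, an L-type pore, was the 1 member higher by 2-fold or more in the internal carotid pool, where 1.51% of all genes were. The median log2 ratio of the 18 was 0.42, beside 0.06 for all genes, and 14 of the 18 lay above 0, as did 56.2% of all genes. At their brightest probe set, 5 members reached the floor only on the external array, which fixes the direction of their bound. Over the 13 members whose brightest probe set was measured on both arrays the median was 0.20, beside 0.05 for the 11255 genes so measured.

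**Figure D1:**
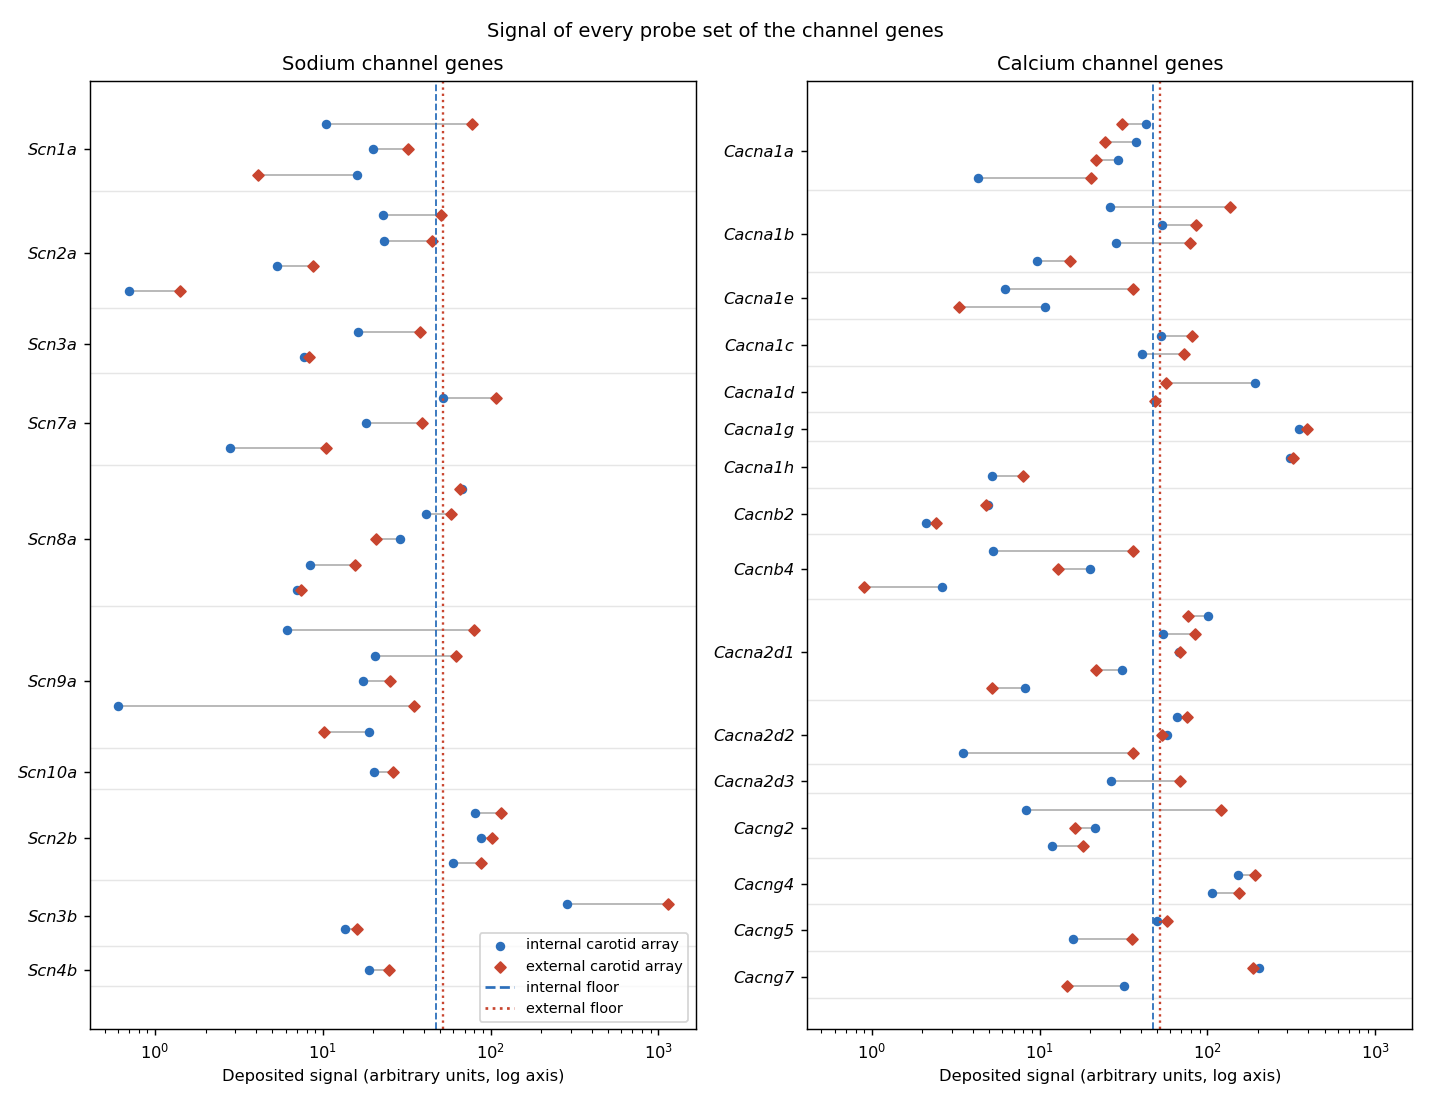
Deposited signal on a log axis for all 69 probe sets of the 26 matched genes, sodium channels left and calcium channels right. Each line joins the internal (circle) and external (diamond) signal of 1 probe set, and vertical lines are the floors of 47.5 and 52.3. Most probe sets sit under both floors, 9 cross above the floor only on the external array, and Scn3b has the longest line among probe sets above both floors.

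Many channel probe sets were dim. Both signals reached the floor in 20 of the 69 probe sets, and in 45.8% of all probe sets. The floor was reached only on the external array by 9 (13.0%), where 4.28% of all probe sets did so. On the internal array only it was reached by 1 (1.45%), beside 4.29% of all. That 1 probe set, for Cacna1d, read 48.4 internal and 48.7 external, so its signals were near equal. Of the 18 measured genes, 14 were in the dimmer 6210 of the 12419 genes by mean signal. That dimmer portion had a median log2 ratio of 0.16, and 2.8% of its genes passed 2-fold towards the external and 1.32% towards the internal pool.

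**Figure D2:**
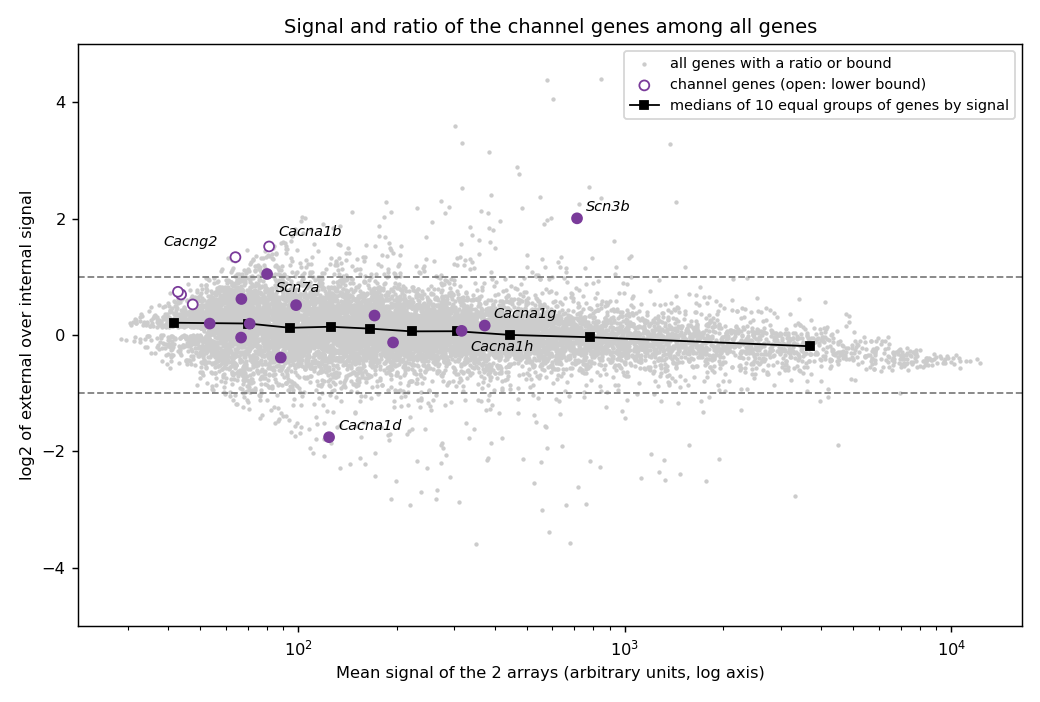
Mean signal of the 2 arrays (log axis) against the log2 ratio of external over internal signal, for all 12419 genes with a ratio or bound (grey) and the 18 measured channel genes (purple, open where a lower bound). Black squares are the medians of 10 equal groups of genes by signal, which run from 0.21 in the dimmest to -0.19 in the brightest. Most channel genes lie at the dim end, while Scn3b stands at a mean signal of 714.

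Among sodium channel pores, the neuronal genes Scn1a and Scn9a were measured on the external array only. Scn1a, a pore of central and peripheral neurons, read 10.5 internal and 77.0 external at its brightest probe set, at least 1.62-fold higher in the external pool. Its other probe sets, which reached at most 32.3, were under both floors. Scn9a, the pore abundant in sensory and sympathetic neurons, read 6.1 internal and 79.5 external, at least 1.67-fold higher. A second Scn9a probe set read 20.5 and 62.0, at least 1.31-fold higher, and the remaining 3 lay under both floors. Both genes were thus above the floor only in the external pool, but with bounds under 2-fold, since the external signals themselves were close to the floor. In bulk tissue, fewer cells of a type and less RNA per cell cannot be told apart.

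Scn8a, a pore of axon initial segments and nodes, was near equal. Its brightest probe set read 67.8 internal and 65.8 external (log2 ratio -0.04), and another read 41.5 and 58.0, a bound of 0.29, so the probe sets gave opposite signs. Scn2a, the pore of early unmyelinated axons, reached 22.9 internal and 50.9 external at its brightest of 4 probe sets, just under the external floor. Scn3a, a pore of embryonic neurons, read 16.2 and 38.2. Scn10a, a pore of sensory neurons that detect painful stimuli, read 20.3 and 26.1. These 3 genes were under both floors on every probe set, so no fold is given.

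Scn7a encodes an atypical member of the family, found in glia including Schwann cells and tied to sodium sensing more than to the action potential. It read 52.3 internal and 108.2 external, 2.07-fold higher in the external pool (log2 ratio 1.05). The internal value stood just above the floor of 47.5. The other probe sets, at 18.2 and 39.0 and at 2.8 and 10.5, lay under both floors. The ratio was 0.97 after centring, 0.94 after quantile normalization, 0.91 after loess and 0.69 with a pseudocount, each under 2-fold. The 7 measured Schwann cell markers had a median log2 ratio of 1.13 in the same pools. Past 2-fold were 4 towards the external (2.15% of all genes) and none towards the internal pool (1.51%). The log2 ratio was 2.28 for Mbp, whose other probe sets went down to -0.30, 1.85 for Fabp7, 1.48 for Foxd3 and 1.13 for Gfra3. Sox10 was at 0.63, S100b at 0.17 and Erbb3 at -0.30. Signals of the Schwann cell markers summed to 2203 internal and 3490 external over 8 matched genes, and none was at 0. Their part in the Scn7a value was not tested.

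In the RefSeq gene order of GRCm38.p6, Scn3a, Scn2a, Scn1a, Scn9a and Scn7a lie on chromosome 2 in that order, with 3 other protein-coding genes between Scn2a and Scn1a and none between the other neighbours. Of these neighbours, Scn7a was above the floor on both arrays, Scn1a and Scn9a on the external array only, and Scn2a and Scn3a on neither.

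Scn3b, a beta subunit that binds the pore noncovalently and is made by neurons, had the largest ratio among the 13 members whose brightest probe set was measured on both arrays; bounds cannot be ranked against it. It read 284.8 internal and 1143.2 external at its brightest probe set, 4.01-fold higher in the external pool, or 2.01 on the log2 scale. Its other probe set read 13.6 and 15.9, under both floors, so the fold rests on 1 probe set. Under the 9 alternatives that kept the 2-fold threshold, the Scn3b ratio ran from 1.85 to 2.02. Several of these could not change it. The floor does not enter a ratio of signals above it, and the median was taken over measured probe sets, here 1. Scn2b, a beta subunit linked to the pore by a disulfide bond, was measured on both arrays by 3 probe sets. They read 81.1 and 115.8, 87.2 and 101.4, and 59.9 and 88.2 (internal first), with log2 ratios of 0.51, 0.22 and 0.56. All 3 were higher in the external pool and under 2-fold. Scn4b, another disulfide-linked beta subunit, lay under both floors at 18.8 and 24.7.

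**Figure D3:**
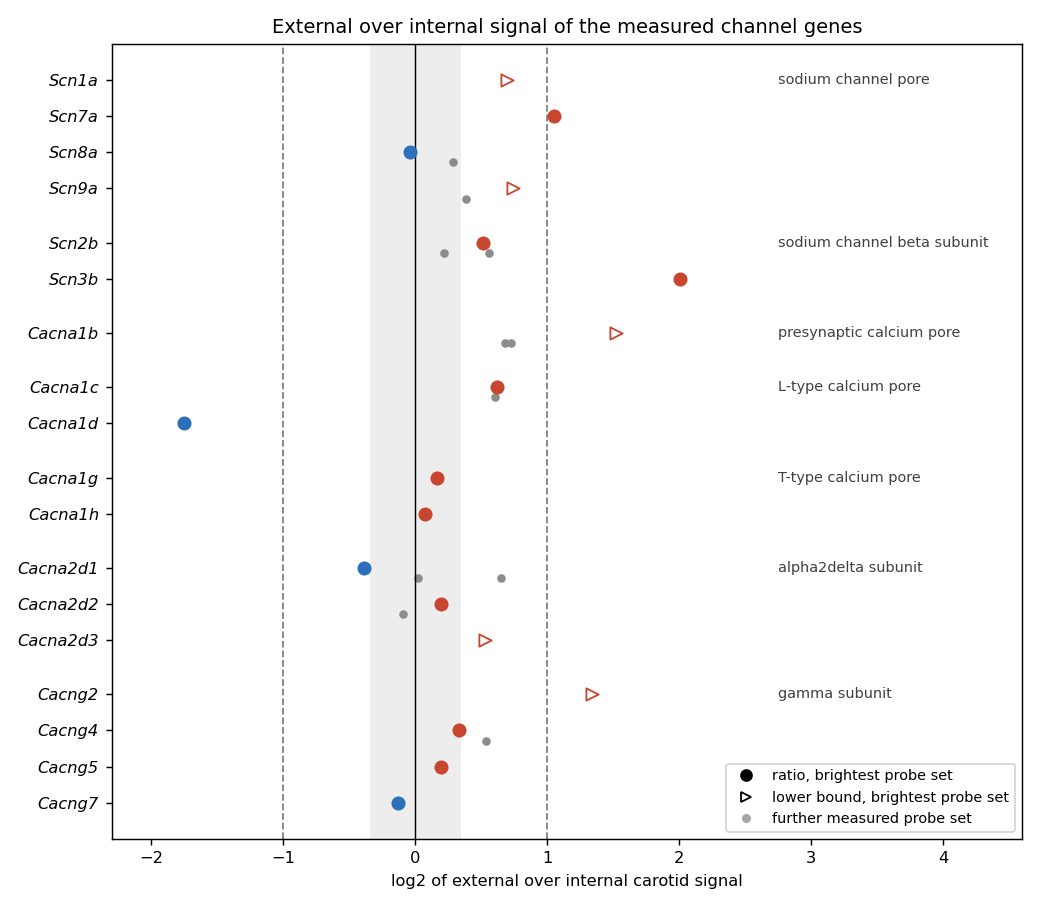
The log2 ratio of external over internal signal for the 18 measured channel genes, ordered by role. Large filled circles are ratios and open triangles lower bounds at the brightest probe set, red above 0 and blue below, and small grey points are further measured probe sets. Dashed lines mark 2-fold and the grey band the technical spread of 0.34, taken from probe sets at or above both floors. Among the ratios, Scn3b stands farthest right at 2.01 and Cacna1d farthest left at -1.75, and 7 genes lie inside the band.

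Of the calcium pores at nerve terminals, Cacna1b was above the floor and Cacna1a and Cacna1e were not. Cacna1b, the N-type pore that drives transmitter release from sympathetic neurons, read 26.4 internal and 136.4 external at its brightest probe set, at least 2.87-fold higher in the external pool. A second probe set read 53.5 and 85.8, a log2 ratio of 0.68, another read 28.6 and 78.5, a bound of 0.72, and the last was under both floors. All 3 measured probe sets were thus higher in the external pool, but only the brightest reached 2-fold. The identifier of that probe set ends in _x_at, which marks it as open to cross-hybridisation. The value was 0.68 without such probe sets and 0.72 with the median over probe sets, both under 2-fold. Cacna1a, the P/Q-type pore, read at most 42.8 internal and 30.8 external over 4 probe sets. Cacna1e, the R-type pore, read at most 10.8 and 35.9 over a pair.

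The L-type pores differed in opposite directions. Cacna1c, the pore of vascular smooth muscle and heart, read 52.8 internal and 81.1 external, a log2 ratio of 0.62, and a second probe set read 41.0 and 72.4, a bound of 0.61. Both were higher in the external pool and under 2-fold. Cacna1d, an L-type pore of neurons, endocrine cells and the sinoatrial node, read 191.7 internal and 56.8 external, 3.38-fold higher in the internal pool, or -1.75 on the log2 scale. The external value stood just above the floor of 52.3. The second Cacna1d probe set read 48.4 and 48.7 and showed no such difference. The probe set behind the call, whose identifier ends in _s_at, is of a kind that can match several transcripts, and without such probe sets Cacna1d had no value. Under a 75th percentile floor the bound was -0.32, under 2-fold.

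Among T-type pores, which open at small depolarisations and pace firing and tone, Cacna1g and Cacna1h were well above the floors. Cacna1g read 351.4 internal and 393.5 external (log2 ratio 0.16). Cacna1h read 308.5 and 324.3 (0.07), with a second probe set under both floors. Both ratios were inside the technical spread of 0.34, and that of Cacna1h was -0.01 after centring.

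Of the cytoplasmic beta subunits, which chaperone the calcium pore, Cacnb2 and Cacnb4 lay under both floors on every probe set, at most 4.9 and 4.8 for Cacnb2 and 19.9 and 36.2 for Cacnb4. The alpha2delta subunits, extracellular partners that raise the number of pores at the surface, are given next. Cacna2d1, the form of skeletal, cardiac and smooth muscle as well as neurons, read 100.2 internal and 76.6 external at its brightest probe set (-0.39). Its other measured probe sets read 67.4 and 68.5 (0.02) and 54.0 and 84.8 (0.65), so the direction depended on the probe set. Cacna2d2 read 66.2 and 75.8 (0.20) and, at a further probe set, 57.1 and 53.5 (-0.09). Cacna2d3, a neuronal form, read 26.6 and 68.4 at its single probe set, at least 1.44-fold higher in the external pool.

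The gamma members belong to a family of which several act mainly as partners of AMPA-type glutamate receptors. Cacng2, known as stargazin, read 8.3 internal and 120.1 external at its brightest probe set, at least 2.53-fold higher in the external pool. Its other probe sets, at 21.5 and 16.2 and at 11.8 and 18.2, were under both floors, so the bound rests on 1 probe set. Cacng4 was measured by a pair of probe sets, at 151.4 and 191.0 (0.34) and at 105.9 and 153.6 (0.54), both higher in the external pool. Cacng5 read 49.9 and 57.2 (0.20), close to the floors. Cacng7 read 203.7 and 186.5 (-0.13). Cacng4 and Cacng5 are next to each other on chromosome 11, beside Cacng1, the gamma subunit of the skeletal muscle channel, which read 131.3 and 69.7 (-0.91).

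Grouped by tissue, the 12 measured neuronal subunits had a median log2 ratio of 0.52, and 0.20 over the 7 whose brightest probe set was measured on both arrays. Of the 12, 10 were above 0 (56.2% of all genes), but 5 of those are bounds whose sign is fixed. Higher by 2-fold or more were 3 in the external pool (2.15% of all genes) and none in the internal pool (1.51%). That count and the median depend on the grouping. Cacna1d (-1.75), also a pore of neurons, was placed with the smooth muscle and pacemaker subunits. So were the T-type pores Cacna1g (0.16) and Cacna1h (0.07), although that group holds pores of vessel, heart and many other cells. The remaining 7 matched neuronal subunits were under both floors. The 4 measured smooth muscle and pacemaker subunits, Cacna1c, Cacna1d, Cacna1g and Cacna1h, had a median of 0.12. Of the skeletal muscle group only Cacna2d1 was measured.

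**Figure D4:**
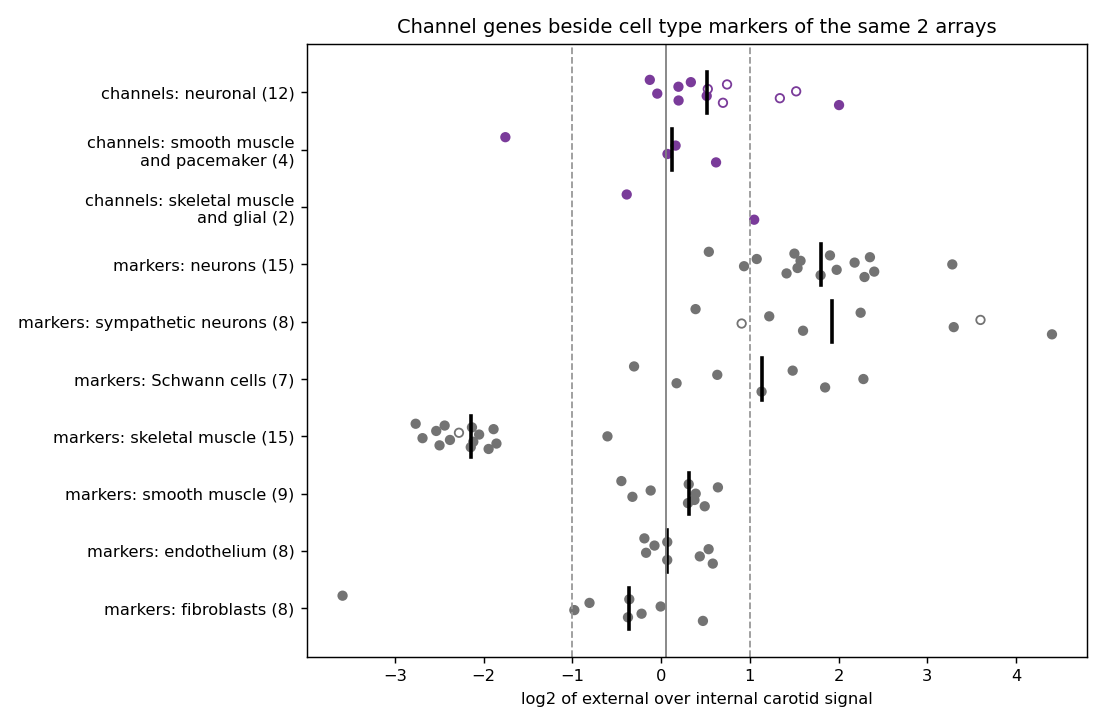
The log2 ratio of external over internal signal for the measured channel genes by tissue group (purple) and for cell type markers (grey), with the number of measured genes in brackets. Points are genes, open where a lower bound, black bars are medians of groups of 4 or more, the thin line is the median of all genes (0.06) and dashed lines mark 2-fold. The neuronal channels have a median of 0.52 and the neuron markers of 1.80, and skeletal muscle markers lie at the opposite end with -2.14.

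Markers of several cell types moved between the same pools. Of all genes, 56.2% were above 0, 2.15% were higher by 2-fold or more in the external pool and 1.51% in the internal pool. All 15 measured neuron markers were above 0, with a median of 1.80, and 13 were higher by 2-fold or more in the external pool. Signals of the 16 matched genes summed to 2753 internal and 12039 external, none was at 0, and Snap25 was under both floors. All 8 measured sympathetic neuron markers were above 0, with a median of 1.92, and 6 were 2-fold or more higher in the external pool. Signals of the 10 matched genes summed to 1785 and 6279. Gata3 and Slc18a2, which loads noradrenaline into vesicles, were under both floors, and none was at 0. All 15 measured skeletal muscle markers were below 0, with a median of -2.14, and 14 were 2-fold or more higher in the internal pool. Signals of the 16 matched genes summed to 20511 and 3999. None was at 0, and Chrnd was under both floors. A second probe set went the other way for Ckm (0.49) and for Des (a bound of 0.34). The part of these cell types in the channel values was not tested.

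Markers of the vessel wall differed less. The 9 smooth muscle markers had a median of 0.31 and sums of 18139 internal and 16100 external. The 8 measured endothelial markers had a median of 0.07, and signals of the 9 matched genes summed to 4134 and 4563. None of either list passed 2-fold in either direction, and Pecam1, a defining endothelial marker, was under both floors. The 8 fibroblast markers had a median of -0.37, with 1 higher by 2-fold or more in the internal pool (1.51% of all genes). The ratio of 3′ to 5′ signal was 4.41 internal and 3.53 external for Actb, and 8.39 and 7.09 for Gapdh. Both genes thus had the higher ratio on the internal array, and the part of this in the channel values was not tested.

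Other subunits of the families, 12 genes not among the 29, had 7 measured members with a median of 0.51. None was higher by 2-fold or more in the external pool (2.15% of all genes) and 1 was so in the internal pool (1.51%). That 1 was Cacna1s, the voltage sensor of skeletal muscle, at 108.2 internal and 44.5 external, at least 2.07-fold higher in the internal pool. Of 29 channel partners and regulators, 24 were measured, with a median of 0.18, and 15 were above 0 (56.2% of all genes). Higher by 2-fold or more were 2 in the external pool (2.15% of all genes) and 1 in the internal pool (1.51%). Crmp1, a growth cone protein of the collapsin response family, was 2.64-fold higher in the external pool, at 197.0 internal and 519.8 external. Ryr3, a calcium release channel of neurons and smooth muscle, was 2.29-fold higher there, at 57.2 and 131.2, with its other probe sets under both floors. Ryr1, the release channel that Cacna1s gates in skeletal muscle, was 7.32-fold higher in the internal pool, at 545.5 and 74.5, and 2.83-fold at a second probe set.

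**Figure D5:**
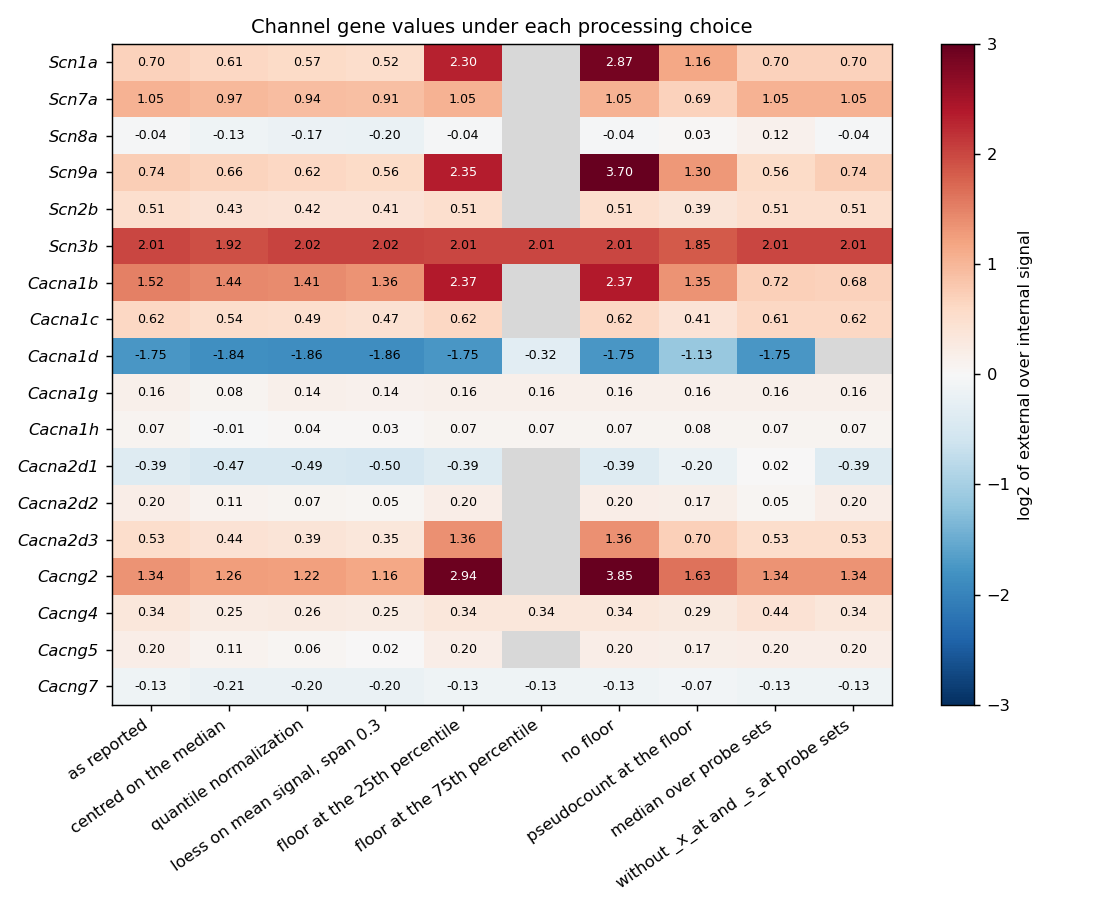
The log2 ratio or bound of the 18 measured channel genes (rows) as reported and under 9 other processing choices (columns), red where external is higher and blue where internal is higher; grey cells have no value. Scn3b keeps a value between 1.85 and 2.02 across the columns, several of which could not change it. The bounds of Scn1a, Scn9a, Cacna1b, Cacna2d3 and Cacng2 grow where the floor is lowered or removed.

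Lowering or removing the floor changed the bounds most. With no floor the log2 ratio was 3.70 for Scn9a, 2.87 for Scn1a, 3.85 for Cacng2, 2.37 for Cacna1b and 1.36 for Cacna2d3. Each rested on an internal signal under the array's median.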

How the data were processed

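RNA of 2 pools was measured on 1 Affymetrix array each, after amplification from the poly-A tail in 2 rounds, per the labels' protocols, so signals favour the 3′ ends of transcripts. The deposited linear intensities come from the authors' use of GCOS 1.4 and its MAS5 method, as the submitters' processing notes name them, and had a 2% trimmed mean of 150 on both arrays, so they were used as deposited. Of 45037 non-control probe sets, 34945 had 1 gene in the platform annotation, 932 several and 9160 none, and only the first were named. For 34741 of those the gene number was found in the RefSeq table of GRCm38.p6, and its symbol was used. The platform's detection calls were not used here.

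The brightest probe set (mean of both signals) stood for a gene. A bound that pointed against the measured side gave no fold. With 1 array per group there is no p-value, and precision is limited by the number of arrays. All 29 members are named, and of the other pathway genes those past 2-fold, besides Cacng1, named as a neighbour. The members, lists and motifs were chosen with earlier results of these data known, so counts over them are descriptions. The steps were tested on simulated data. Python 3.11.15, numpy 2.4.6, pandas 2.3.3, statsmodels 0.14.6 and matplotlib 3.10.9 were used.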

Additional observations from a re-analysis of the deposited data

How the results depend on the processing

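The count of members higher by 2-fold or more in the external pool, 4 as reported, was 3 after centring, quantile normalization or loess, with the median over probe sets and without probe sets whose identifiers end in _x_at or _s_at, where 1.61% to 2.13% of all genes were called so, and 5 with a pseudocount at the floor (0.940%). A 25th percentile floor gave 11 and no floor 11, where 4.97% and 8.38% of all genes were called so, and a 75th percentile floor gave 1 (1.12%). At a 1.5-fold threshold it was 7 (9.39% of all genes) and at a 3-fold threshold 1 (0.459%). The count higher in the internal pool, 1 as reported, was 0 under a 75th percentile floor and 0 without the _x_at and _s_at probe sets, and 1 under the other 9 alternatives. The median of the neuronal subunits, 0.52 as reported, was 1.15 under a 25th percentile floor and 1.15 with no floor. Those settings gave 25 and 26 members a value, against 18 as reported. The neuronal median was lower under a 75th percentile floor (0.34), where only Scn3b, Cacng4 and Cacng7 of that group had a value. It was also lower after loess (0.38), after quantile normalization (0.40) and after centring (0.44). The median of all members, 0.42 as reported, ran from 0.12 under a 75th percentile floor, with 6 members, to 0.51, and that of the smooth muscle and pacemaker subunits, 0.12 as reported, from 0.03 to 0.16. Of 149 values of single members under the 9 alternatives that kept the 2-fold threshold, 145 kept their sign. The exceptions were Scn8a with the pseudocount (0.03) and with the median over probe sets (0.12), Cacna1h after centring (-0.01) and Cacna2d1 with the median over probe sets (0.02). Many of the 149 could not change sign. The sign of a bound is fixed, and a ratio does not depend on the floor while both signals stay above it. The count is thus no measure of stability. The low signal of most members limits the set. Centring shifted every ratio by -0.08. No paired analysis was possible because each vessel had 1 array.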
